A study of Mus musculus with 36 samples.

Results

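Untransduced Th1 cells of wild-type and Ets1-SE-KO mice were compared by RNA sequencing in 4 of the 36 libraries of the series. They are the libraries of a second Th1 experiment whose cells received no virus, with 2 libraries of C57BL/6J wild-type cells (WT) and 2 libraries of Ets1-SE-KO cells (KO), a strain that by its name lacks a super-enhancer of Ets1. The cells began as naive CD4+ T cells purified from spleen by negative selection, were activated by antibodies against CD3 and CD28, and were cultured with interleukin 12 and interleukin 2, which was the same for both genotypes. Each genotype has 1 library with B number 1 and 1 with B number 2 in its title, named WT B1, WT B2, KO B1 and KO B2 below. What the B number stands for, how old the mice were, whether mice were pooled, and where the deletion lies are not stated in the sources used here. The labels do not say whether the libraries came from separate animals. Within each genotype, however, the 2 libraries differ in Y-linked RNA, as given below, so they did not come from the same animal. The p-values measure spread between libraries, and how much of that spread is technical is not known. WT cells with an empty retrovirus and KO cells with a retrovirus carrying Ets1, from the same experiment, also entered the model. They were added for the estimate of the spread. They also had a part in the filter on low counts, the scaling and the term for the B number. The KO minus WT comparison itself was between the untransduced groups. The most similar other comparison is the first Th1 experiment, 3 WT and 3 KO libraries that share B number 1 and whose titles name no virus, which is set beside the results where it bears on them.

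The protein of Ets1 is a transcription factor, named like its Ets family, that T cells make in large amounts and that binds DNA at a core GGAA. Th1 cells are helper T cells that make interferon gamma under the factor T-bet, encoded by Tbx21, whereas Th2 cells make interleukins 4, 5 and 13 under GATA3, and the 2 factors oppose each other. Super-enhancers are clusters of enhancers that keep genes of a cell's identity highly transcribed.

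The libraries held 3981403 (WT B1), 6844944 (WT B2), 3673270 (KO B1) and 1813288 (KO B2) gene counts, so both KO libraries were shallower than both WT libraries, and the part of depth in the results was not tested. Levels are CPM, each gene's share of the gene counts of its library, scaled by TMM factors. The 2 B numbers differed in sex-linked RNA in the same way in each genotype. Xist, the RNA of the inactive X chromosome, measured 255 CPM in WT B2 and 352 CPM in KO B2 but 0.231 CPM in WT B1 and 0 in KO B1. Ddx3y, a Y-linked RNA helicase gene, measured 55.4 CPM in WT B1 and 53.3 CPM in KO B1 and 0 in both B2 libraries. The B numbers therefore separate libraries with and without Y-linked RNA, and the genotypes are balanced over that difference. Mitochondrially encoded genes took 12.2% and 13.8% of gene counts in WT and 9.89% and 14.7% in KO, so the genotypes overlapped in this share. Of the markers of the labelled cell type, Cd4 measured 494 and 412 CPM in WT and 386 and 335 CPM in KO, and Il12rb2, the interleukin 12 receptor chain of Th1 cells, lay between 501 and 547 CPM in all 4 libraries. Il4 and Il5, defining cytokines of Th2 cells, were at or below 0.838 CPM in every library. Cxcr3, a chemokine receptor of Th1 cells, was also low, at 1.89 to 3.94 CPM.

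At the Ets1 locus, RNA of Ets1 was lower in KO but far from lost, and a non-coding RNA next to it was not counted in KO at all. Ets1 (ENSMUSG00000032035, GRCm38 chr9:32636221-32757820, plus strand) measured 377 and 402 CPM in WT and 220 and 244 CPM in KO (B1 and B2, here and in all pairs below). Both KO libraries lay below both WT libraries. The log2 fold change, KO minus WT, was -0.75 (SE 0.136, adjusted p = 0.00802). The call was lost without WT B1 (adjusted p = 0.0571), WT B2 (0.172) or KO B1 (0.107). Gm27162 (ENSMUSG00000099025, chr9:32904937-32928966, minus strand), a long intergenic non-coding RNA gene 147 kb beyond the end of Ets1, had 23 and 43 counts in WT and 0 and 0 in KO. Against a floor of 3 counts over the KO group it was at least 11.1-fold lower (adjusted p = 0.00559, and 0.107 without KO B1). Fli1, the Ets family gene on the other side of Ets1, measured 34.4 and 45.8 CPM in WT and 31.6 and 38.3 CPM in KO and was not called (log2 -0.21, SE 0.162, adjusted p = 0.607). Of the 14 Ets family genes tested, Ets1 alone was called, beside 1.91% of all genes tested. With only the 4 untransduced libraries and the B number in the model, 2 of the 14 were called lower. With no filter on low counts 2 of 17 were.

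Over 11072 genes tested, 212 genes (1.91%) passed an adjusted p of 0.05, 93 higher in KO (0.84%) and 119 lower (1.07%). The median log2 fold change of all genes was -0.0076. All 212 moved the same way at both B numbers, and their WT and KO values did not overlap, which was also so for 43.3% of all genes tested. The number of calls rests on every library. Without WT B1 it was 73, without WT B2 44, without KO B1 56 and without KO B2 104, of which 59, 42, 38 and 80 were among the 212. Without the B number in the model 137 genes were called, all among the 212. DESeq2 called 112 genes. Among the called genes named below it did not call Serpinb9 (adjusted p = 0.173), Il13 (0.183), Ccnb1 (0.0795), Cdc6 (0.173), Mcm5 (0.111), Csf1 (0.0854), Cxcr4 (0.0854), App (0.0548) and Trdc (0.141). With only the 4 untransduced libraries and no B number in the model, Tbx21 (0.0682), Cdc6 (0.0599), Top2a (0.0527), Mcm5 (0.0583), Serpinb9 (0.0671) and Aldoa (0.0786) were not called, and with counts without strand Trdc (0.0629) was not. The call was kept in every alternative by 20 genes. Those higher in KO were Nrn1, Nhsl1, Lgals3, Gbe1, Cd24a, Mt2, Lrp1, Ndrg1, Smtn, Bnip3, P4ha2 and Ccr4. Those lower were Ccl3, Rrm2, Muc13, Ifng, Iqsec1, Hmgb2, Spp1 and Ccna2.

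**Figure D1:**
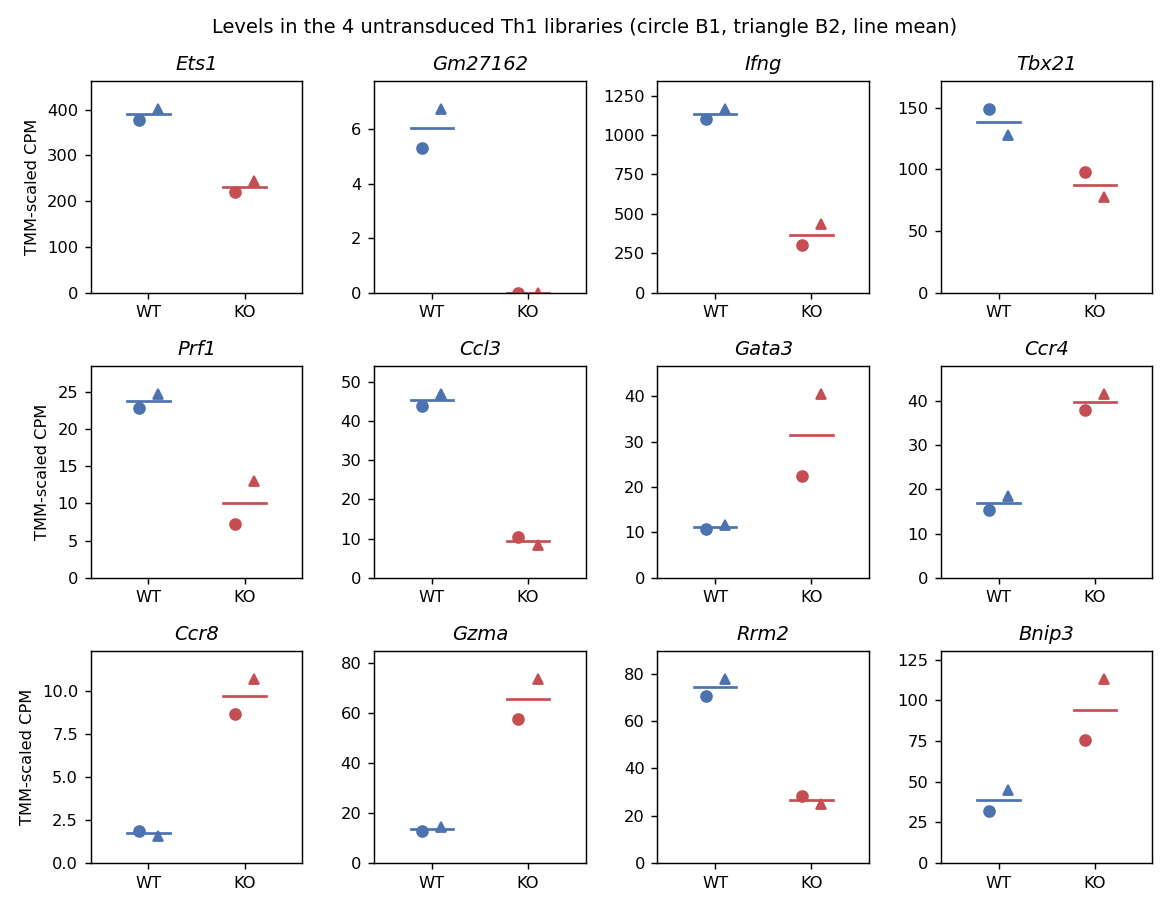
Levels of 12 genes in the 4 untransduced Th1 libraries, in TMM-scaled CPM on axes that start at 0. Circles are B number 1, triangles B number 2, and lines the means of the 2 libraries; WT and KO do not overlap in any of the 12 panels, and Gm27162 is at 0 in both KO libraries.

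Of the Th1 genes, the cytokine gene Ifng fell in KO, as did Ccl3 and Tbx21. Ifng, which encodes interferon gamma, measured 1099 and 1167 CPM in WT and 301 and 433 CPM in KO. The WT libraries lay close together and both KO libraries far below them. Its log2 fold change was -1.63 (SE 0.211, adjusted p = 0.00101), and its call held in all 11 alternatives. Ccl3, a chemokine that attracts monocytes and T cells, measured 43.9 and 46.9 CPM in WT and 10.3 and 8.45 CPM in KO (log2 -2.27, SE 0.23, adjusted p = 8.34e-05). It was the most reduced gene with at least 10 CPM in either genotype whose call held in every alternative. Tbx21 measured 149 and 128 CPM in WT and 97.5 and 77.1 CPM in KO. The fall was small and near the threshold, with a log2 fold change of -0.67 (SE 0.149, adjusted p = 0.0286). Its call was lost without the B number in the model (adjusted p = 0.124) and without any 1 of the 4 libraries (0.112 without WT B1, 0.284 without WT B2, 0.176 without KO B1 and 0.108 without KO B2). Of the 27 Th1 genes tested, 0 rose and 4 fell, and the list's median was -0.23 against -0.0076 over all genes, of which 1.07% fell. The list held 2 falls without any 1 of the 4 libraries, and its median was -0.14 without KO B1. Of its receptor chains and signal carriers, Il12rb2, Il2rb and Irf1 had log2 fold changes between -0.05 and 0.08, with none called. Of the 21 tested genes of the interferon gamma response, the targets of Ifng, 0 were called, and their median was 0.02. Over all genes tested 1.91% were called, so 0 calls does not set a list of this size apart.

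The sequences before the transcription start of genes that differed between the genotypes are shown for 3 genes of the fall, for Prf1 of the cytotoxic genes and for Gata3 of the rise. They are the 250 bases before the start, 5′ to 3′ on the gene's strand, from RefSeq on GRCm38.p6. Capitals mark the Ets motif GGAAGT, which is longer than the core GGAA, or, for the other strand, ACTTCC. The core alone is not marked. It is in the window of Ifng as GGAA and in that of Gata3 as TTCC, its form on the other strand. Their positions are chr10:118440796-118441045 on the plus strand for Ifng, chr11:97115332-97115581 on the minus strand for Tbx21, chr11:83649379-83649628 on the minus strand for Ccl3, chr10:61297586-61297835 on the plus strand for Prf1 and chr2:9878601-9878850 on the minus strand for Gata3.
Ifng: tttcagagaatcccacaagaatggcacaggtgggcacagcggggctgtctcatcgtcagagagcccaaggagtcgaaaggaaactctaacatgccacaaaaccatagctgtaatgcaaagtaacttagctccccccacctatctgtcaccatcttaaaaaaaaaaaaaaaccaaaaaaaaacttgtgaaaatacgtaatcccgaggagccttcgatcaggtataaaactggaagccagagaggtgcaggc
Tbx21: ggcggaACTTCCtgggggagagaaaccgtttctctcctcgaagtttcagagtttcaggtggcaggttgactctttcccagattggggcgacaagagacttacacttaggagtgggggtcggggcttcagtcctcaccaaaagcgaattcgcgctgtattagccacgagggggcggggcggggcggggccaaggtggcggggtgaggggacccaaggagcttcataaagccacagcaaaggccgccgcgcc
Ccl3: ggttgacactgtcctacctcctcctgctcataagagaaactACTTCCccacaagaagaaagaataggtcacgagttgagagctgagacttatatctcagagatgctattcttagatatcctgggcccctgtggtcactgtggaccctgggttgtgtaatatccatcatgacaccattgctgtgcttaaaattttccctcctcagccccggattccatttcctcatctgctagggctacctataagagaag
Prf1: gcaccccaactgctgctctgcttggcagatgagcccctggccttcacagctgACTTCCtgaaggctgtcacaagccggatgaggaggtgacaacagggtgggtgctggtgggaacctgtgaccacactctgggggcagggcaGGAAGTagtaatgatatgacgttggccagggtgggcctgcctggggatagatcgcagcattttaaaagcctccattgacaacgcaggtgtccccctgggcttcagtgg
Gata3: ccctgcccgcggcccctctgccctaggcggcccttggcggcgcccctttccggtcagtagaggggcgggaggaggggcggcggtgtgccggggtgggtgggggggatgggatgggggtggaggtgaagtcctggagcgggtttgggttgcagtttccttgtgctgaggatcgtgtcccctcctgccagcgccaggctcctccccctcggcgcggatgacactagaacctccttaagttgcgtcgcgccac
GGAAGT occurs 2 times in the window of Prf1 and 1 time each in those of Tbx21 and Ccl3, and these letters are not in the windows of Ifng and Gata3. The longer motif CCGGAAG, which overlaps GGAAGT where a T follows it, is in none of the 5 windows.

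Read over all called genes, CCGGAAG was less frequent than over the genes tested, and GGAAGT was not more frequent. Promoters were found for 155 of the 212 called genes, 211 windows in all because some genes have several starts. CCGGAAG, on either strand, was in 7.58% of them, in 14.8% of the promoters of all genes tested and in 6.91% of all 32851 promoters in the table. GGAAGT was in 18.96% of the promoters of called genes, 24.3% of those of genes tested and 19.7% of all promoters. Between the directions, GGAAGT was in 12.1% of the 99 promoters of genes higher in KO and in 25.0% of the 112 promoters of genes lower in KO. CCGGAAG was in 4.04% and 10.7% of them, in that order. A match describes the letters in the window and does not show binding.

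Several genes of the Th2 programme rose in KO. Of 14 tested, 6 rose and 0 fell, with a median log2 fold change of 0.56, beside 0.84% of all genes that rose. The list held 3, 1, 1 and 3 rises without WT B1, WT B2, KO B1 and KO B2. Gata3 measured 10.9 and 11.6 CPM in WT and 22.3 and 40.5 CPM in KO. The 2 WT libraries were alike and the 2 KO libraries differed between B numbers, but the genotypes did not overlap. The log2 fold change was 1.47 (SE 0.264, adjusted p = 0.00802). The call of Gata3 was lost without the B number in the model (0.0881), without WT B2 (0.208), without KO B1 (0.086) or without KO B2 (0.0828). Ccr4, a chemokine receptor of Th2 and skin-homing T cells, rose from 15.2 and 18.6 CPM to 38.0 and 41.7 CPM (log2 1.24, SE 0.181, adjusted p = 0.00191) in every alternative. Ccr8, another Th2 chemokine receptor, rose from 1.85 and 1.57 CPM to 8.66 and 10.7 CPM (log2 2.58, SE 0.443, adjusted p = 0.00585), and was lost without WT B2 (0.165) or KO B1 (0.107). Il13 rose from 4.39 and 4.09 CPM to 8.94 and 11.8 CPM (log2 1.33, SE 0.318, adjusted p = 0.0431). Its call is the weakest of the 6 and was lost without the B number (0.119), with only the 4 untransduced libraries in the model (0.0582 with the B number and 0.0847 without it) and without any 1 library (0.0571, 0.479, 0.256 and 0.114 without WT B1, WT B2, KO B1 and KO B2). The remaining 2 are Nfil3, a transcription factor of cytokine genes (99.7 and 103 against 172 and 173 CPM, log2 0.77, adjusted p = 0.00559), and the cytokine gene Il24 (221 and 235 against 330 and 405 CPM, log2 0.68, adjusted p = 0.0101). Nfil3 was lost without WT B1 (0.0833), WT B2 (0.151) or KO B1 (0.0845), and Il24 without any 1 library (0.0948, 0.257, 0.0519 and 0.0757 in the order above). Maf, a driver of interleukin 4, measured 10.4 and 7.55 CPM in WT and 16.5 and 11.3 CPM in KO and was not called (adjusted p = 0.288).

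Genes of the cytotoxic granule did not move together. Of 10 tested, 1 rose and 2 fell, beside 0.84% and 1.07% of all genes, and the median was -0.31. Prf1, the pore-forming protein perforin, measured 22.9 and 24.7 CPM in WT and 7.26 and 12.9 CPM in KO (log2 -1.33, SE 0.26, adjusted p = 0.0149). The call was lost without WT B1 (0.064), WT B2 (0.0881) or KO B1 (0.277). Serpinb9, an inhibitor of granzyme B, measured 52.6 and 43.9 CPM against 31.8 and 27.0 CPM (log2 -0.74, adjusted p = 0.0376). It was lost without the B number (0.189) and without any 1 library (0.0909, 0.314, 0.338 and 0.0755 without WT B1, WT B2, KO B1 and KO B2). Gzma, a granule protease, went the other way, from 12.7 and 14.5 CPM in WT to 57.5 and 73.8 CPM in KO (log2 2.31, SE 0.349, adjusted p = 0.00231, and 0.0845 without KO B1). Gzmb, the most abundant granzyme here, measured 1031 and 1007 CPM in WT and 707 and 935 CPM in KO and was not called (log2 -0.34, adjusted p = 0.567). Its reads, and those of Gzmc, can be affected by near-identical copies of the granzyme family.

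Markers of other cells that could be among the cultured cells gave values that differed by genotype for some types. The summed level of 7 gamma-delta T cell markers was 10.2 and 11.2 CPM in WT and 2.51 and 2.25 CPM in KO, and 1 of the 7, Blk, was at 0 in all 4 libraries. Trdc, which encodes the constant part of the delta chain, measured 6.00 and 4.72 CPM in WT and 0.838 and 0.563 CPM in KO (log2 -2.86, SE 0.595, adjusted p = 0.0215, and 0.1, 0.11, 0.232 and 0.0828 without WT B1, WT B2, KO B1 and KO B2). Its part in the falls of Ifng, Ccl3 and Prf1 was not tested. The summed level of 7 natural killer cell markers was 9.003 and 5.67 CPM in WT and 3.91 and 4.504 CPM in KO. This sum was mostly Eomes, at 7.62 and 3.78 CPM in WT and 2.51 and 3.94 CPM in KO. Eomes overlapped between genotypes and was not called (adjusted p = 0.546). The values of the sum did not overlap, which was also so for 43.3% of all single genes tested. The defining markers Ncr1, Klrb1c and Klra8 were at 0 in all 4 libraries. The 10 dendritic cell markers summed to 95.8 and 88.4 CPM in WT and 105 and 94.6 CPM in KO, which overlapped, and Xcr1 and Siglech were at 0 in all 4. Within that list the MHC class II gene H2-Ab1 rose from 23.5 and 22.3 CPM to 47.2 and 43.4 CPM (log2 1.01, adjusted p = 0.00861, and 0.175 and 0.191 without WT B2 and KO B1). Cd74, the largest part of that sum, went the other way, at 65.1 and 60.7 CPM in WT and 49.7 and 45.0 CPM in KO. H2-Aa was at or below 0.693 CPM in all 4 libraries. The part of these markers in the other results was not tested. CD8 T cell markers summed to 2.31 and 6.14 CPM in WT and 3.91 and 4.504 CPM in KO, and B cell markers to 71.6 and 52.2 CPM against 49.4 and 81.1 CPM, so both overlapped. Of the 10 B cell markers, Ms4a1 and Cd79a were at or below 0.472 CPM, and most of the sum was Ebf1 and Ighm. The 10 myeloid markers summed to at most 7.82 CPM, with Lyz2 at or below 0.279 CPM. In these bulk libraries fewer cells of a type and less RNA per cell cannot be told apart.

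**Figure D2:**
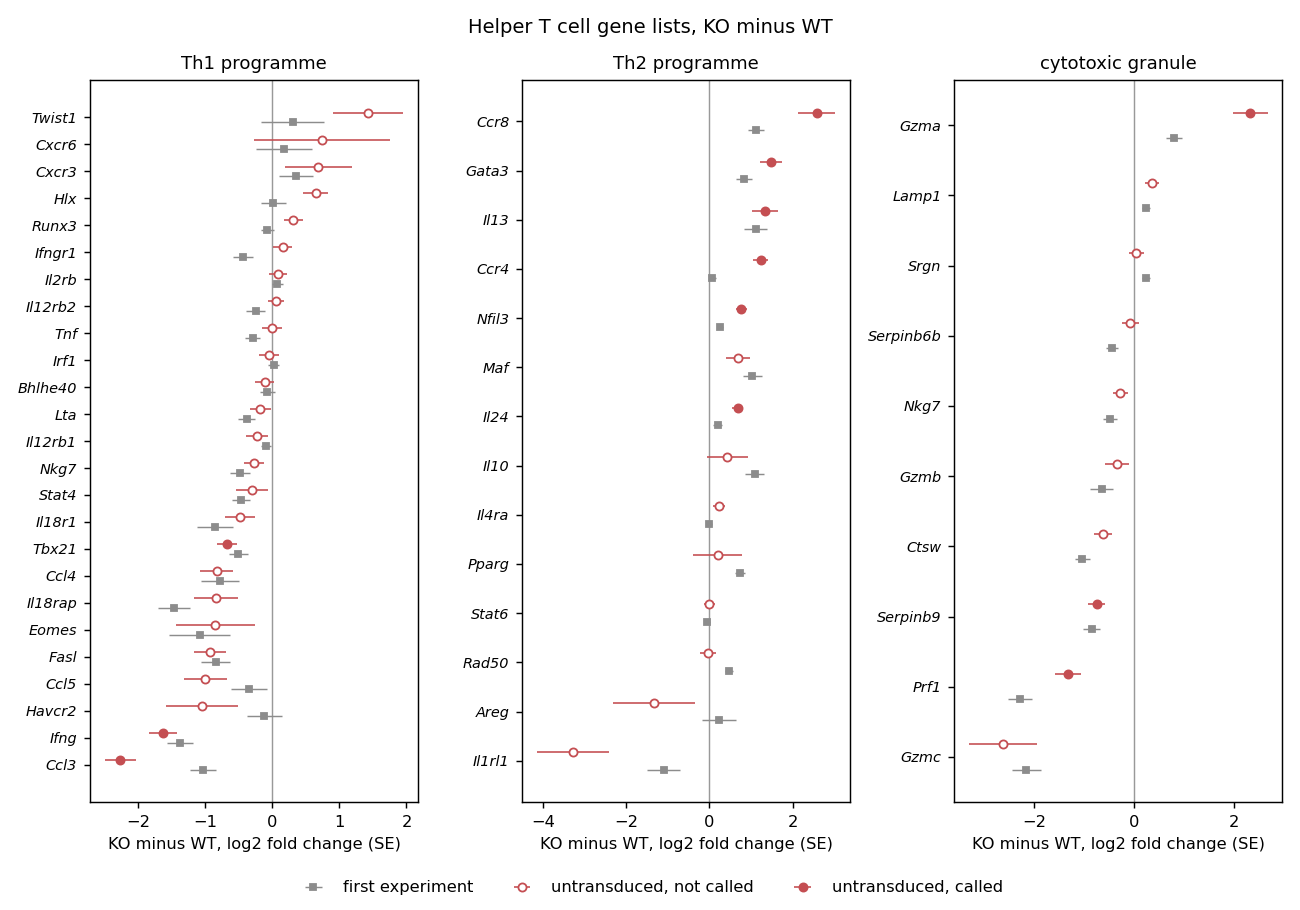
Log2 fold changes (KO minus WT) of 25 genes of the Th1 programme, 14 of the Th2 programme and 10 of the cytotoxic granule list, with bars of 1 SE. Circles are the untransduced cells, filled where called, and grey squares the first Th1 experiment; 3 of the Th1 genes shown are called lower, 6 Th2 genes are called higher, and Gzma is the 1 cytotoxic gene called higher.

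Several genes of the cell cycle fell in KO. Of 26 tested, 0 rose and 7 fell, 24 were lower in KO at both B numbers, and the median log2 fold change was -0.65. Over all genes tested 1.07% fell, and 3272 of 11072 were lower at both B numbers. Rrm2, a subunit of the enzyme that makes DNA precursors, measured 70.6 and 77.7 CPM in WT and 28.2 and 24.8 CPM in KO. The log2 fold change was -1.47 (SE 0.159), and the call (adjusted p = 0.000159) held in every alternative. Ccna2, the cyclin of S and G2 phase, measured 44.3 and 52.6 CPM against 21.2 and 24.2 CPM (log2 -1.09, SE 0.162, adjusted p = 0.00191) and also held in every alternative. The other 5 were Birc5, a passenger protein of dividing chromosomes (log2 -1.26), Ccnb1, the mitotic cyclin (-1.09), Cdc6, a licensing factor of replication origins (-0.82), Top2a, which untangles DNA (-0.62), and Mcm5, a subunit of the replicative helicase (-0.62). Top2a, the most abundant of the 7, measured 324 and 302 CPM in WT and 213 and 193 CPM in KO (SE 0.128, adjusted p = 0.0209). It was lost without any 1 library (0.223, 0.183, 0.0892 and 0.107 without WT B1, WT B2, KO B1 and KO B2). Mcm5 was lost without the B number (0.0595) and without any 1 library (0.272, 0.257, 0.0755 and 0.228 in that order). Birc5 was lost without WT B1 (0.118) or KO B1 (0.26). Ccnb1 was lost without WT B1 (0.119), WT B2 (0.111) or KO B1 (0.268), and Cdc6 without any 1 library (0.0945, 0.288, 0.0892 and 0.16 in the same order). Over the alternatives that leave out 1 library the list kept 2, 3, 2 and 4 falls (WT B1, WT B2, KO B1, KO B2) with medians of -0.62 to -0.67, and it had 4 falls by DESeq2 and 14 with no filter on low counts. Mki67, a marker of dividing cells, measured 325 CPM in WT B1 but 124 CPM in WT B2, against 96.9 and 89.0 CPM in KO, and was not called (adjusted p = 0.0973), but was called with only the 4 untransduced libraries and the B number in the model (0.000169, and 0.0467 without the B number) and with no filter on low counts (2.89e-11). Outside the list, Hmgb2, a chromatin protein of dividing cells, fell from 118 and 122 CPM to 56.7 and 60.2 CPM (log2 -1.04, SE 0.143, adjusted p = 0.0014), and the mitotic motor gene Kif11 from 60.3 and 61.2 CPM to 30.4 and 32.7 CPM (log2 -0.94, adjusted p = 0.00443, and 0.0547 without WT B1 and 0.0755 without KO B1).

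A few genes of glycolysis and the hypoxia response rose in KO. Of 25 tested, 4 rose and 0 fell, 18 were higher in KO at both B numbers, and the median was 0.26. Over all genes tested 0.84% rose, and 3116 of 11072 were higher at both B numbers. Without WT B1 the median of the list was 0.14. Bnip3, a mitochondrial protein induced in hypoxia, measured 32.1 and 45.0 CPM in WT and 75.4 and 113 CPM in KO (log2 1.26, SE 0.177, adjusted p = 0.00146) and held in every alternative. Ero1l, an oxidase of the endoplasmic reticulum, measured 116 and 127 CPM against 201 and 255 CPM (log2 0.90, adjusted p = 0.0019, and 0.0881 without WT B2). Egln3, an oxygen-sensing prolyl hydroxylase, measured 255 and 290 CPM against 468 and 419 CPM (log2 0.71, adjusted p = 0.0132, and 0.186, 0.165 and 0.187 without WT B1, WT B2 and KO B1). Aldoa, the glycolytic aldolase, measured 1079 and 1262 CPM against 1866 and 1636 CPM (log2 0.59, adjusted p = 0.0407). Its call was lost without the B number (0.0542) and without WT B1 (0.498), WT B2 (0.222) or KO B1 (0.322). The list held 2, 1, 2 and 7 rises without WT B1, WT B2, KO B1 and KO B2, and 7 with no filter on low counts. Outside the list P4ha2, a collagen prolyl hydroxylase, rose from 3.92 and 3.15 CPM to 15.4 and 19.7 CPM (log2 2.30, SE 0.333, adjusted p = 0.00183). Ndrg1, a gene known to respond to hypoxia, rose from 53.3 and 48.5 CPM to 105 and 112 CPM (log2 1.09, adjusted p = 0.0014), and the metallothionein gene Mt2 from 36.5 and 42.3 CPM to 83.8 and 87.8 CPM (log2 1.11, adjusted p = 0.00119). Neither Hif1a nor the glucose carriers Slc2a1 and Slc2a3 were called. In the first experiment 4 of the 25 list genes were called higher and 0 lower, beside 2.16% and 1.51% of all genes, with a median of 0.08. No value on the density or oxygen supply of the cultures is given in the sources used here.

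**Figure D3:**
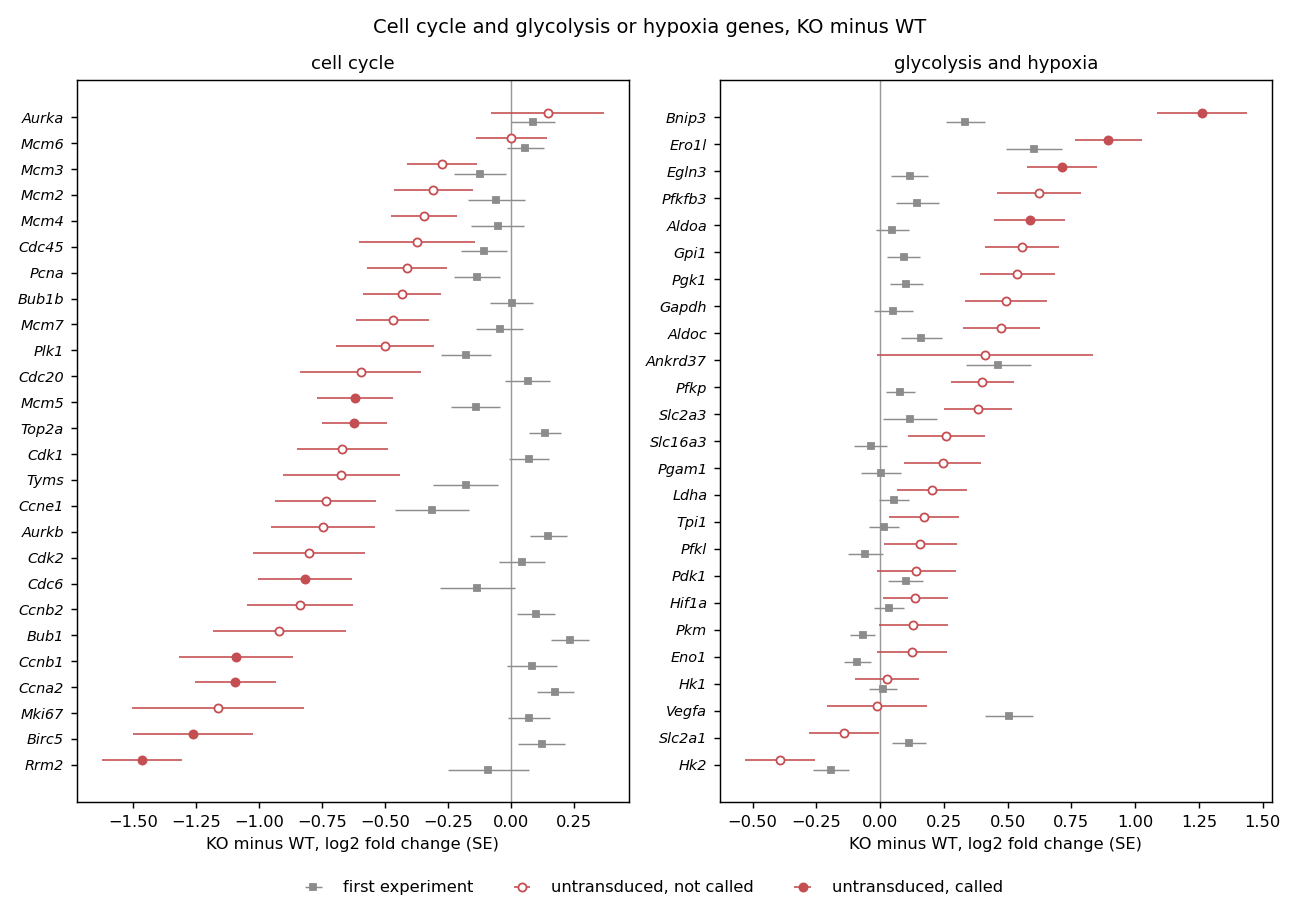
Log2 fold changes (KO minus WT) of the 26 cell cycle genes and the 25 glycolysis and hypoxia genes tested, with bars of 1 SE. Circles are the untransduced cells, filled where called, and grey squares the first Th1 experiment; 24 of the 26 cell cycle circles lie left of 0, and the squares of the cell cycle genes lie around 0. In the first experiment 4 of the glycolysis and hypoxia genes were called higher.

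Nrn1, the neuritin gene found in anergic and regulatory T cells, rose from 62.8 and 52.6 CPM to 161 and 180 CPM (log2 1.56, SE 0.144, adjusted p = 8.34e-05). Nhsl1, related to the Nance-Horan syndrome gene, rose from 37.2 and 30.2 CPM to 103 and 111 CPM (log2 1.66, SE 0.163, adjusted p = 8.34e-05). Lgals3, the galectin 3 gene, rose from 21.7 and 24.7 CPM to 68.4 and 69.8 CPM (log2 1.58, SE 0.158, adjusted p = 8.34e-05). In these 3 genes the KO libraries lay at more than 2 times the higher WT library. Cd24a, a glycoprotein of immature and activated lymphocytes, had a log2 fold change of 1.86, the glycogen-branching enzyme gene Gbe1 1.89, the smoothelin gene Smtn 1.70, and the endocytic receptor gene Lrp1 1.48. Further rises were those of Gcnt4 (2.26), a glycosyltransferase gene lost only without KO B1 (adjusted p = 0.0727), and Tns4 (2.15), a tensin gene of focal adhesions lost without WT B2 (0.107) or KO B1 (0.0783). Tnfrsf9, the costimulatory receptor 4-1BB, rose from 382 and 369 CPM to 635 and 694 CPM (log2 0.82, adjusted p = 0.00249, and 0.133 without WT B2).

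Among the falls, Muc13, a membrane mucin, went from 29.8 and 28.3 CPM to 5.59 and 7.88 CPM (log2 -2.19, SE 0.24, adjusted p = 0.000159). Iqsec1, an exchange factor of the GTPase ARF6, went from 52.2 and 53.0 CPM to 25.4 and 18.02 CPM (log2 -1.24, SE 0.17, adjusted p = 0.0014). Spp1, the cytokine osteopontin, went from 186 and 205 CPM to 84.1 and 108 CPM (log2 -1.04, SE 0.147, adjusted p = 0.00146). These 3 calls held in every alternative. In the first experiment Muc13 (log2 -1.34) and Iqsec1 (-0.84) were also called lower, but Spp1 was not called (log2 0.29, adjusted p = 0.759). Pdgfb, a growth factor chain, measured 30.5 and 28.3 CPM against 10.9 and 10.7 CPM (log2 -1.48, adjusted p = 0.00191, and 0.092 without KO B1), and Csf1, the macrophage growth factor gene, 27.2 and 23.8 CPM against 13.96 and 9.57 CPM (log2 -1.10, adjusted p = 0.0312). Csf1 was lost without the B number (0.0759) and without any 1 library (0.0862, 0.196, 0.199 and 0.122 without WT B1, WT B2, KO B1 and KO B2).

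Many groups of T cell genes had few or no calls. Of the 28 tested genes of the T cell receptor and its proximal signalling, 0 were called and the median was -0.03. The lists of Tfh (8), Th17 (9), TGF-beta and tissue residency (14), immediate early (15), ERK feedback (11), sterol synthesis (22), survival and death (17), MHC class I processing (17) and amino acid stress genes (17), with the number tested in brackets, each had 0 calls. Over all genes tested 1.91% were called, so 0 calls in lists this short is near that share. With no filter on low counts, the TGF-beta list held 2 rises and the Th17, ERK feedback and amino acid stress lists 1 rise each. The survival and death list then held 1 fall. A gene that misses the threshold is not thereby shown to be unaltered. Tgfbr1, a TGF-beta receptor chain, measured 8.31 and 9.13 CPM in WT and 16.5 and 16.3 CPM in KO with an adjusted p of 0.0614. Of the 16 tested genes of the type I interferon response, the nucleic acid sensor gene Zbp1 fell (log2 -1.13, adjusted p = 0.00496, and 0.0963 without WT B1 and 0.128 without KO B1), and 14 of the 16 had negative fold changes, as had 5630 of the 11072 genes tested, with a median of -0.19. The median was -0.07, -0.45, -0.61 and -0.54 without WT B1, WT B2, KO B1 and KO B2. Among 15 naive and homing genes, Igfbp4 rose (log2 0.94, adjusted p = 0.00723, and 0.155 and 0.139 without WT B2 and KO B1). Of the 11 chemokine receptors tested, 3 rose and 1 fell, beside 0.84% and 1.07% of all genes, with a median of 0.44, and without WT B1, WT B2, KO B1 and KO B2 there were 2, 1, 1 and 2 rises and 0 falls. The third riser beside Ccr4 and Ccr8 was Cxcr4, the receptor of CXCL12, at 10.4 and 9.91 CPM against 20.9 and 23.1 CPM (log2 1.10, adjusted p = 0.0172). Cxcr4 was lost without any 1 library (0.1, 0.183, 0.104 and 0.0875 without WT B1, WT B2, KO B1 and KO B2).

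**Figure D4:**
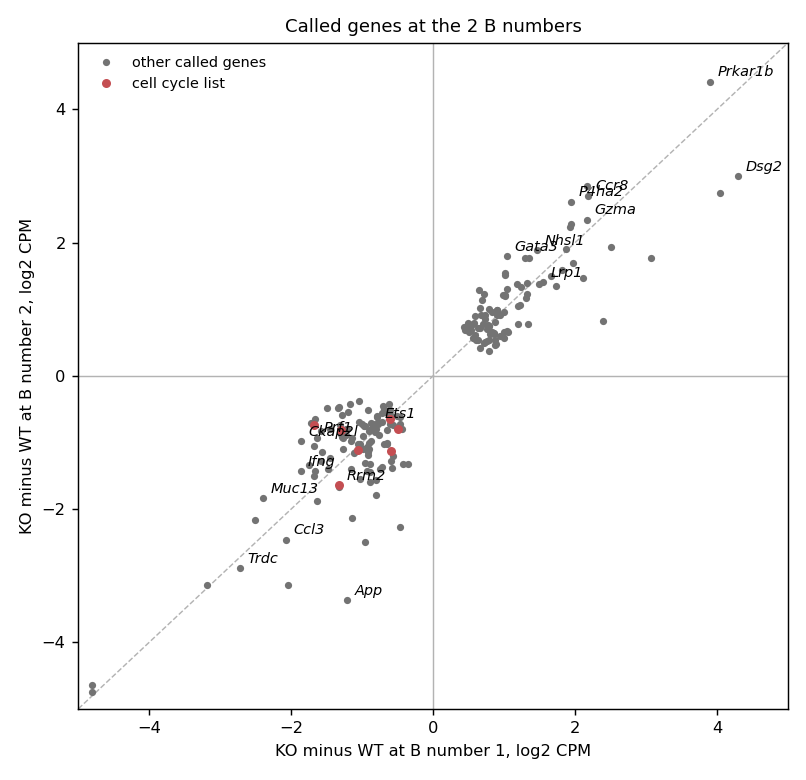
KO minus WT in log2 CPM at B number 1 (x axis) and B number 2 (y axis) for 209 of the 212 called genes, the other 3 lying beyond the axes, with the line of equality dashed. All points lie in the quadrants where both B numbers move the same way, and red points are genes of the cell cycle list.

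The B numbers gave similar sizes for some genes and not for others. The difference of Ifng, KO minus WT, was -1.87 in log2 CPM at B number 1 and -1.43 at B number 2. App, the amyloid precursor gene, differed by -1.21 and -3.37, and its call (log2 -1.82, adjusted p = 0.0259) was lost without WT B2 (0.205), KO B1 (0.0587) or KO B2 (0.12). Gata3 was higher by 1.04 and by 1.79. With 1 library per genotype and B number there is no test of these differences.

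The first Th1 experiment gave 462 called genes of 12616 tested (3.66%), 272 higher (2.16%) and 190 lower (1.51%) in KO, and without its WT library 1 or its KO library 1 the count was 176 or 226. Of the 212 genes called in untransduced cells, 57 were also called there, 56 of them in the same direction, 30 higher and 26 lower. These 56 are 26.4% of the calls in untransduced cells and 12.1% of the calls of the first experiment. The exception was Ckap2l, a spindle protein gene, with a log2 fold change of -1.50 in untransduced cells and 0.32 in the first experiment. Its call in untransduced cells was lost without WT B1 (0.0862) or KO B1 (0.225). Of the 212, 172 had the same sign in the first experiment, against 59.8% of all genes tested in both. The 2 experiments share no libraries. In the first, the 3 libraries of a genotype share a B number and differ in T number, and each was counted as 1 sample. In the second, transduced libraries of that kind were summed. The spread of the first experiment, and n = 3 below, are therefore of another kind, and its p-values and those of the difference may be too small.

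For the leading genes the values were side by side as follows. Ets1 measured 795 ± 53.1 CPM in WT and 582 ± 38.1 CPM in KO of the first experiment (SD, n = 3), with a log2 fold change of -0.45 against -0.75 in untransduced cells, and the difference was not called (adjusted p = 0.491). Ifng measured 727 ± 218 CPM and 279 ± 83.3 CPM (log2 -1.38 against -1.63, difference adjusted p = 0.843). Gata3 measured 150 ± 57.9 CPM and 267 ± 81.1 CPM (log2 0.84 against 1.47, difference adjusted p = 0.704). Prf1 measured 54.0 ± 11.7 CPM and 11.2 ± 1.71 CPM (log2 -2.27 against -1.33, difference adjusted p = 0.357). The levels of the 2 experiments were normalised separately, so only the fold changes are compared. Nhsl1 (2.23 against 1.66), Tns4 (2.19 against 2.15), Muc13 (-1.34 against -2.19) and App (-1.96 against -1.82) were called in both, with no call on their difference.

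The KO effect itself differed between the experiments in 45 of 12831 genes tested (0.351%), 11 with a more positive and 34 with a more negative log2 fold change in untransduced cells. Of these, 39 were called in untransduced cells and 5 in the first experiment. The cell cycle list does not hold every gene of cell division, and Hmgb2, Ckap2l and Kif11, outside it, were among the 34. Members of the list made up 7 of the 45, all in the negative direction: Ccna2, Rrm2, Birc5, Top2a, Ccnb2, Ccnb1 and Bub1. Of these 7, the call on the difference was kept by 2, 2, 0 and 3 without WT B1, WT B2, KO B1 and KO B2. In the first experiment the cell cycle list had 0 calls among 26 tested and a median of 0.02. For Ccna2 the fold changes were -1.09 and 0.18 (adjusted p of the difference 0.00175), with 131 ± 3.66 CPM in WT and 148 ± 6.44 CPM in KO of the first experiment (SD, n = 3). For Rrm2 they were -1.47 and -0.09 (difference adjusted p = 0.00708). Genes with a more positive fold change in untransduced cells included Lrp1 (1.48 and -0.25, difference adjusted p = 0.00175), Ccr4 (1.24 and 0.08, 0.00708), Gbe1 (1.89 and 0.41, 0.00791), P4ha2 (2.30 and 0.49, 0.0184) and Nrn1 (1.56 and 0.38, 0.038). The count of differences depends on single libraries. It was 0 without KO B1, 9 without WT B1, 11 without WT B2 and 32 without KO B2, of which 0, 7, 11 and 19 were among the 45. At an unadjusted p under 0.05 the fit without KO B1 held 1184 genes. None of the 45 changed sign in these 4 fits. The experiments also differ in depth, from 8451125 to 10256407 gene counts in the first, in the share of the 10 most abundant genes, 38.3% to 46.4% here against 23.2% to 25.1%, and in the Y-linked RNA of the B1 libraries, and the part of these in the differences was not tested.

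**Figure D5:**
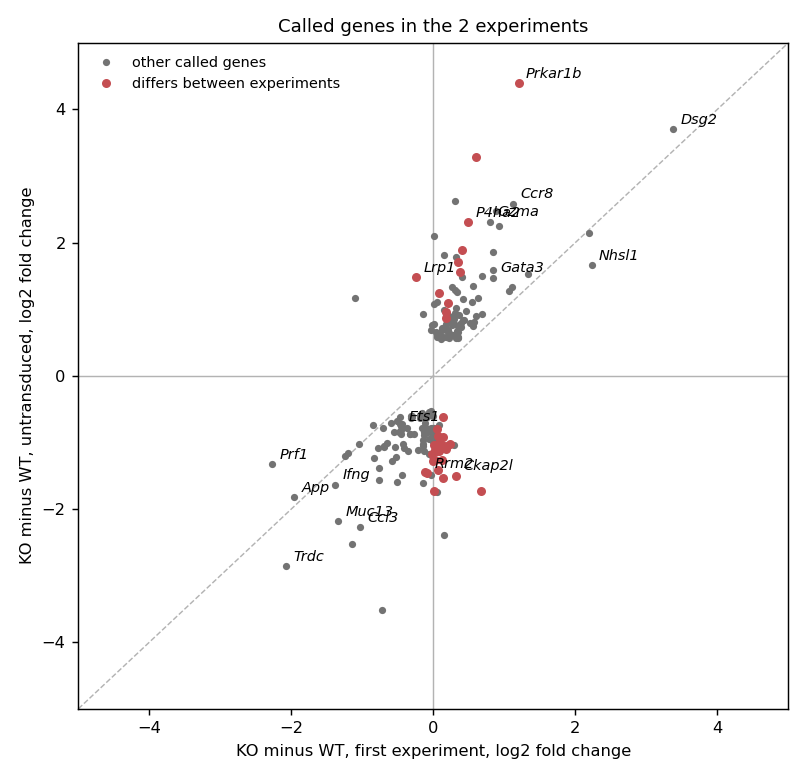
Log2 fold changes (KO minus WT) of 207 of the 212 called genes in the first Th1 experiment (x axis) and in untransduced cells (y axis), the other 5 lying beyond the axes, with the line of equality dashed. Red points are genes whose KO effect differed between the experiments; most of them lie below 0 on the y axis and near 0 on the x axis.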

How the data were processed

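RNA of mouse Th1 cells was sequenced as paired, strand-specific total RNA libraries, per the labels' protocols (instruments NextSeq or NovaSeq, not told apart by library). The authors deposited a table of raw counts for every library, aligned with STAR 2.5.0a to GRCm38, per the submitters' processing notes. The tables hold 45706 genes. Lines that name no gene took 63.6% to 74.3% of the reads of the 4 untransduced libraries and stayed out of library sizes. The strand with 93.5% to 95.1% of the stranded counts was used. Gene identifiers were matched to GENCODE M21 (45143 matched, 563 did not), a release not named in the sources used here. The 8 libraries whose title and transduction label name different viruses entered no comparison.

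Groups came from titles. Tests were edgeR's quasi-likelihood test (version 4.0.16, R 4.3.3) after TMM scaling and filterByExpr, with p adjusted over all tested genes by Benjamini-Hochberg and called under 0.05. All adjusted p-values of the text come from it unless another tool is named. The fit held 8 samples of the second experiment, 4 groups of 2 after summing transduced libraries that share a B number, with the B number as a block, which left 3 residual degrees of freedom. The first Th1 experiment was fitted with the Th2 libraries of its set, and the difference between experiments as an interaction over 14 samples. Libraries of a group differed by more than sampling noise (chi-square per degree of freedom 12.7 in WT and 6.77 in KO). The scripts were tested on simulated counts. Floors of 3 counts cover counting error alone because no molecular identifiers were counted, and depth sets what low genes can show.

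Genes picked by rule were Ets1, Gm27162, Fli1, Ifng, Tbx21 and Gata3. To these came the 12 called genes with the largest and the 12 with the smallest fold change at 10 CPM or more in a genotype. Called members of the gene lists followed (at most 6 per list, otherwise the 3 with the smallest p). The last were genes called in both experiments (at most 10), the 6 with the smallest p for the difference, and sex-linked genes. The text describes only some of the picked genes. Those left out include Ccl9 (log2 -2.52), Ptgir (-1.60), B430306N03Rik (-1.56), Zwilch (-1.48), St8sia6 (1.53) and Casz1 (1.50), whose calls were each lost in at least 1 alternative. The Y-linked genes Kdm5d, Uty and Eif2s3y were also left out. Other genes named (Mt2, Ndrg1, Spp1, Mki67, Gzmb, Maf, Mcm5, Ccnb2, Bub1, other list members and cell type markers) were chosen after their values were seen. The libraries compared and the gene lists were chosen with earlier results of these data known. Alternatives were no block, only the untransduced libraries, RLE size factors, DESeq2 1.42.0, no filter, counts without strand, and each library left out. Leaving out libraries in the test of the difference between experiments was added after seeing the data. Values of 3 genes of the lists are not reported here, although the counts over their lists include them.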

Additional observations from a re-analysis of the deposited data

Results flagged for a closer look

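The effect of the deletion differed between untransduced cells and the first Th1 experiment, by the interaction test of edgeR, for 19 of the 129 named genes. Over all 12831 genes tested it differed for 45 (0.351%). Hmgb2, Lrp1 and Kif11 were named for their small p in this same test. Ccnb2, Bub1 and Ndrg1 were named after their values were seen. The share among named genes is therefore partly built in by how they were chosen. The values below are the log2 fold change in untransduced cells minus that in the first experiment. Genes of cell division were more negative in untransduced cells, with -1.28 for Ccna2, -1.06 for Hmgb2, -1.83 for Ckap2l, -1.04 for Kif11, -1.38 for Rrm2, -1.39 for Birc5, -0.76 for Top2a, -1.18 for Ccnb1, -0.94 for Ccnb2 and -1.15 for Bub1. Rnu11, a small nuclear RNA of the minor spliceosome, stood at -1.73, and the gene model Gm10800 at -2.41. More positive were Lrp1 at 1.72, Ccr4 at 1.16, Gbe1 at 1.49, P4ha2 at 1.81, Smtn at 1.36, Nrn1 at 1.18 and Ndrg1 at 0.88. None of these 19 was called without KO B1, where the test called 0 genes. Rnu11 had 168 CPM in WT B2 and 74.1 CPM in WT B1, against 38.0 and 29.8 CPM in KO, and its untransduced call was lost without KO B2 (adjusted p = 0.0783).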

How the results depend on the processing

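For untransduced KO against WT, 212 genes were called. The correlation between same-numbered libraries of 6 pairs of groups was 0.0387 to 0.329, and 0.0443 between the untransduced WT and KO libraries, so not every pair exceeded 0.1, although Xist and Y-linked RNA split the B numbers alike in both genotypes. Without the replicate block 137 genes were called, and 143 with only the untransduced libraries and no replicate block (270 with it). DESeq2 called 112, no filter on low counts 469, RLE size factors 208 and counts without strand 205. Leaving out 1 library gave 44 to 104. In the first experiment 462 genes were called, and leaving out 1 library gave 176 to 469. For the difference between experiments 45 genes were called, 34 with no replicate block, and 0 to 32 on leaving out 1 untransduced library. The share of called genes' promoters with a motif was 7.58% for CCGGAAG and 18.96% for GGAAGT, beside 14.8% and 24.3% over genes tested. These are 2 motifs of unlike length, not 1 result under 2 settings. No named gene reversed. Under these alternatives there were 1414 values of 129 named genes, of which 62 were called in the main fit. Of the values, 1247 stayed on their side of the threshold, 153 lost and 14 gained a call. The 1247 include values of uncalled genes that stayed uncalled. All 153 losses fell on the 62 called genes, of which 20 kept the call in every alternative. The cause of these changes was not tested. With 2 libraries a genotype and 1813288 gene counts in KO B2, low genes are limited by depth.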
